A study of Mus musculus with 30 samples.

Results

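IAPEz-int is the repeat annotation's name for the internal part of IAPEz elements, a subfamily of the intracisternal A particle (IAP) retroviruses of the mouse genome. The 4453 units described here are every unit of the deposited repeat class whose repeat name is IAPEz-int, out of 319797 single repeat copies and 382367 transcription units in all. They were chosen by name alone, so no measured value entered the choice. Nascent RNA was followed in mouse embryonic stem cells of the line dTKO, and all libraries carry 1 genotype, written in the labels as Suv39h1fl/fl ; Suv39h2-/- ; Setdb1fl/fl. TT-seq was used, in which RNA made during a pulse of 4-thiouridine (1 mM for 10 minutes) is purified and sequenced. The cells grew without feeders in serum with LIF. Treatment combined 2 drugs that trigger the breakdown of proteins carrying degron tags, auxin (100 µg/ml) and dTAG13 (0.5 µM). The groups are 0, 3, 12, 24 and 48 h of treatment, with 3 libraries each, and 0 h is the baseline. The labels do not name the tagged proteins, and all libraries come from this 1 line, so line and treatment effects beyond the time course cannot be told apart.

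IAP elements are retrotransposons that move only within the cell. An intact element has a long terminal repeat (LTR) at each end, which holds the promoter and the polyadenylation site, and an internal part with the gag, pro and pol genes, to which the name IAPEz-int refers. In mouse embryonic stem cells IAPs are a textbook target of silencing by KRAB zinc finger proteins, Trim28 and the H3K9 methyltransferase Setdb1, which lay down H3K9me3 across the LTR and the 5′ part. SUV39H1 and SUV39H2 deposit the same mark, mainly in pericentric heterochromatin.

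The 4453 copies cover 10.7 Mb and range from 95 to 6647 bp, with a median of 1443 bp and quartiles of 714 and 3269 bp. Their lengths fall into separate heaps. The bins from 6250 to 6750 bp hold 796 copies, and 150 copies lie between 3500 and 6000 bp. When same-strand pieces at most 100 bp apart were joined, the copies formed 3227 insertions, of which 2152 were a single piece, 938 had 2 pieces and 137 had 3 to 5. A recurrent form, chosen after the lengths were seen, is a piece of 1100 to 1400 bp followed in the direction of transcription by a piece of 3100 to 3400 bp. This pair occurs 204 times. Copies are split evenly between the strands (2187 plus, 2266 minus). An IAP LTR unit of the table lies within 100 bp on the same strand of 2055 copies.

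The 5′ end of the internal part is shown for 5 copies, because it is the part next to the promoter and because these copies differ in level at 48 h. RefSeq promoter windows (GRCm38.p6, from 250 bases before to 50 after a gene's start) overlapped 19 copies, and 7 of them held the copy's 5′ end with at least 100 bases of the copy on the gene's own strand. Bases of the copy are in capitals and the 30 bases before it are in lower case, read 5′ to 3′ on the copy's strand.
IAPEz-int_dup6476, chr16:31578587-31578716, minus strand: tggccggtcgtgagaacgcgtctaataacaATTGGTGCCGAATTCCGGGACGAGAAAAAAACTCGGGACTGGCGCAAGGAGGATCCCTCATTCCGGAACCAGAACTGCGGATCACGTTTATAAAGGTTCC
IAPEz-int_dup3871, chrX:65707233-65707362, plus strand: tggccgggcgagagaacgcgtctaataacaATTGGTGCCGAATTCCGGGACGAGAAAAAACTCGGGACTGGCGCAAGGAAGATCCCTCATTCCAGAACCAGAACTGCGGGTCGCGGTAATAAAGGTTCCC
IAPEz-int_dup3915, chrX:78709127-78709256, plus strand: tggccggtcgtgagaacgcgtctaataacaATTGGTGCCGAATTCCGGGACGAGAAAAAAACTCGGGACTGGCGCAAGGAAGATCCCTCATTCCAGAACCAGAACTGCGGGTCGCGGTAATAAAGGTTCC
IAPEz-int_dup3939, chrX:84512664-84512793, minus strand: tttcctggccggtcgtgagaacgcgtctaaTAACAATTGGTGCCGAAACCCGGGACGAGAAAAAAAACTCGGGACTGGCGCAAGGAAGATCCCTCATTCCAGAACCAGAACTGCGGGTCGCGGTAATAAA
IAPEz-int_dup3876, chrX:66758587-66758716, plus strand: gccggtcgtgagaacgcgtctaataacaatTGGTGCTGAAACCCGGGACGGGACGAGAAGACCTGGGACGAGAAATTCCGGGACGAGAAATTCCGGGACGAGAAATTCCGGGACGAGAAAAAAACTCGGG

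The first 100 bases of dup3871 and dup3915 are 98.0% identical and those of dup6476 and dup3915 94.0%, and identity among the 7 copies runs down to 53.0%. The longest run of letters shared by all 7 is CCGGGACGAGAAAAAA, which starts at base 15 of dup6476, dup3871 and dup3915 and at base 78 of dup3876, where a short stretch is repeated before it. On either strand this run is in 10 of 32851 promoter windows (0.0304%), of which 8 overlap a copy. The 10 letters GAGAACGCGT stand in the 30 bases before all 7 copies and occur in 14 windows (0.0426%). Both counts include the 7 windows from which the letters were taken, so these shares are a description. At 48 h dup6476, a 670 bp piece, had a mean of 73.7 scaled reads (reads divided by the authors' size factor for the library), with 56.1, 58.9 and 106 in its 3 libraries. The 6389 bp copy dup3871 had 18.4, the 6397 bp copy dup3915 had 17.8, the 2969 bp copy dup3939 had 4.33 and the 3077 bp copy dup3876 had 2.06. Of the 7 copies, 1 has an LTR unit of the table within 100 bp on its 5′ side, although the 10 letters above stand before all of them. The class without an LTR unit used below is therefore a statement about the table's units, not about the genome.

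Recovered reads ran from 37122086 to 42293639 per library over all units and from 837180 to 2058090 over repeat copies. Reads in IAPEz-int copies ran from 5650 in a 0 h library to 109304 in a 48 h library, so the 0 h values of single copies rest on few reads. The 8 markers of embryonic stem cells were measured in every library, with a summed level of 10213 to 19279 scaled reads, beside 652 to 1158 for 5 feeder fibroblast markers and 318 to 601 for 6 markers of differentiated lineages. In such bulk samples, more cells transcribing a copy and more RNA per cell cannot be told apart. The handling of reads that fit several near-identical copies is not stated in the labels or headers, so the value of a single copy is uncertain to that extent. The same limit applies to levels per kb compared between forms, length classes and LTR classes below. Its size was not tested.

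Summed over all copies, IAPEz-int transcription had no called change at 3 h and was higher than at 0 h at each later time. The sum at 0 h was 4660, 4934 and 4844 scaled reads in the 3 libraries, a mean of 4812 ± 139 (SD, n = 3). At 3 h it was 5323, 4429 and 5155, which overlaps the baseline. The 12 h libraries held 12227, 14821 and 12966, the 24 h libraries 43536, 51022 and 42240, and the 48 h libraries 75245, 84676 and 80530. From 12 h on, the lowest library of each time lay above the highest of the time before. The fitted log2 changes from 0 h (limma with the intensity trend on log2 of scaled reads plus 1, adjusted over 774 families) were 0.04 (SE 0.12, adjusted p = 0.787) at 3 h, 1.47 (adjusted p = 1.40e-33) at 12 h and 3.239 (adjusted p = 4.36e-157) at 24 h. By 48 h the log2 change was 4.06 (limma, adjusted p = 2.32e-240), or 16.7-fold. Among all families tested, 1.55%, 32.9%, 24.4% and 23.4% were called up at the 4 times in turn. The call at 3 h depended on the scaling: after levelling the libraries over genes the change was 0.28 (limma, adjusted p = 3.46e-05). At 12 h the family had reached 16.6% of its 48 h level and at 24 h 56.9%.

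More copies had a read at the later times. Reads in the family also rose, with 5650 to 5931 per library at 0 h and 101889 to 109304 at 48 h. Counts of copies with a read would grow with that total even if all copies rose in proportion. At 0 h 673 to 721 of the 4453 copies had a read in a given library, and 3020 (67.8%) had none in any of the 3. By 48 h 3379 to 3455 copies had a read per library, and 255 had none in the 3 libraries. A total of 2 copies had no read in any of the 15 libraries, the longer of them a 4364 bp copy in an intron of Itgbl1 (IAPEz-int_dup6108, chr14:123724799-123729162), whose partner piece of 811 bp reached only 1.76 ± 1.58 at 48 h. The signal was concentrated at 0 h, when 24 copies held 50% of it and the top 10 held 33.1%. At 48 h the same share was spread over 256 copies, and the top 10 held 7.56%. Among the 100 highest copies at 0 h and the 100 highest at 48 h, 20 were in both lists.

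**Figure D1:**
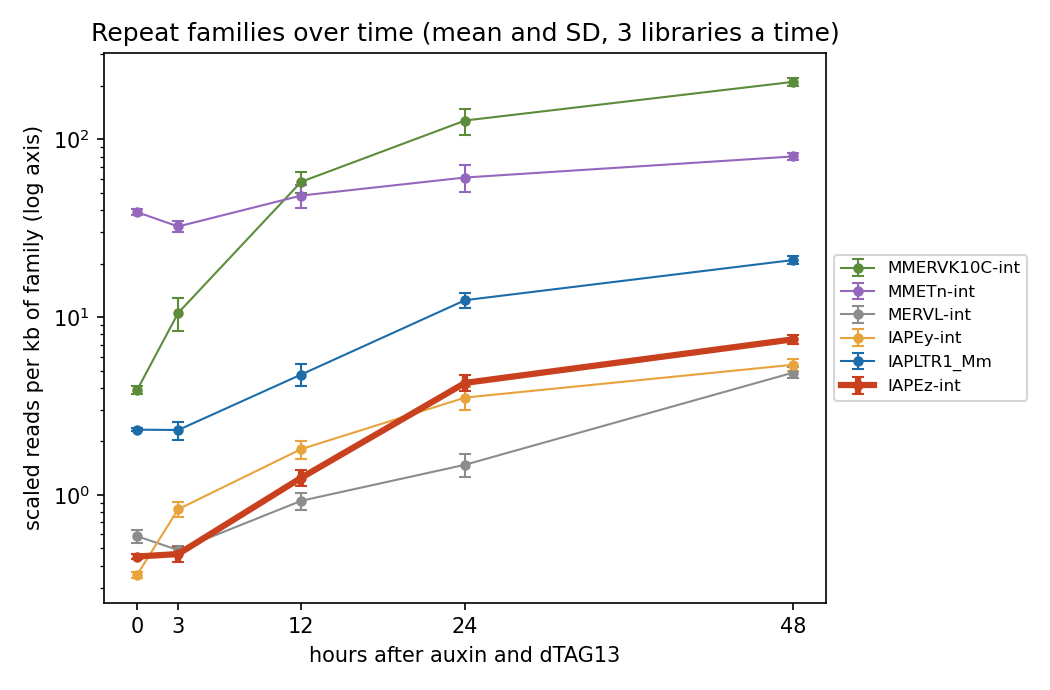
Level of IAPEz-int and 5 comparison families by time, as scaled reads per kb of family on a log axis, with the mean and SD of 3 libraries. IAPEz-int (thick line) stays at 0.450 and 0.465 per kb at 0 and 3 h and ends at 7.50 per kb at 48 h, while MMERVK10C-int is already higher at 3 h.

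The comparison families differed from IAPEz-int in both directions at 3 h. MMERVK10C-int, the internal part of another class II retrovirus, rose by 1.42 (log2) by 3 h and by 5.76 by 48 h. Within a library its rise exceeded that of IAPEz-int by 1.38, 2.41, 1.78 and 1.70 at the 4 times in turn (SE 0.06, limma, adjusted p at most 5.82e-32). IAPEy-int, an IAP family named for its Y-linked member, rose by 1.21 by 3 h, 1.17 (SE 0.06) more than IAPEz-int (limma, adjusted p = 2.82e-27). The lead had gone by 24 h, when the difference was 0.05 (limma, adjusted p = 0.420), and at 48 h it was -0.14 (adjusted p = 0.0301). Of the 9 other IAP internal families tested, the change was larger than that of IAPEz-int in 4 and smaller in 1 at 3 h by this test, larger in 3 and smaller in 2 at 12 h, larger in 1 and smaller in 5 at 24 h, and smaller in 6 at 48 h. Of the 14 IAP LTR families tested, it was larger in 4 and smaller in 1 at 3 h, larger in 2 and smaller in 10 at 12 h, and smaller in 13 at 24 h and in all 14 at 48 h. MERVL-int, the internal part of a class III retrovirus known for its expression at the 2-cell stage, rose by 3.06 by 48 h and MMETn-int, of a further class II family, by 1.04. At 3 h their changes minus that of IAPEz-int were -0.30 and -0.31 (limma, adjusted p = 5.45e-06 and 9.63e-06). At 24 h MERVL-int stood at 30.3% of its 48 h level, against 56.9% for IAPEz-int.

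A single copy was tested only where its mean over all 15 libraries reached 10 scaled reads, which 666 copies (15.0%) did. Since most of these passed through their late values, the counts are a description. At 3, 12, 24 and 48 h, 7, 328, 596 and 614 of the 666 were called up (limma, adjusted over 13519 copies of all families), where 2.50%, 20.8%, 25.4% and 26.0% of all tested copies were called up. At 48 h 6 were called down, where 12.3% of all tested copies were. Most copies were first called at 12 h (321) or 24 h (269), 20 at 48 h, and 49 were never called up. Of the 617 called at any time, 614 stayed called at every later time. The choice of minimum sets the count: with no minimum (4451 copies with a read) 7, 354, 1549 and 2239 were called up at 3, 12, 24 and 48 h, against 0.117%, 1.11%, 2.47% and 4.05% of all copies, and 10 were called down at 48 h (0.575% of all copies). With the minimum placed on 0 h alone (75 copies), 13, 19 and 25 were called up at 12, 24 and 48 h, against 5.17%, 5.80% and 6.06%. Of these 75, 8 were called down at 48 h, against 15.5%. At 3 h limma and edgeR each called 0 of the 75 up, with 2 at an unadjusted p under 0.05 in each, where limma called 0.870% of all copies. The authors' deposited table marks 1677 of the 4453 copies (37.7%) up at 48 h and 9 (0.202%) down, and over all repeat copies it marks 2.48% up and 0.330% down.

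The 0 h level split the family into parts with unlike courses, which are described without a test because the 0 h level enters the contrast. The 3020 copies with no read at 0 h reached 5.58 ± 0.350 scaled reads per kb at 48 h and then held 42.2% of the family's signal. The 964 copies with a mean above 0 and under 1 went from 0.137 to 6.39 per kb, and the 394 copies from 1 to under 10 went from 0.712 to 13.5 per kb. The 75 copies at 10 or more went from 17.1 ± 0.236 to 42.1 ± 1.95 per kb, 2.46 times their 0 h level. These 75 held 71.3% of the signal at 0 h and 10.5% at 48 h, and 27 of them were lower at 48 h than at 0 h. By form, 50 of the 75 are pieces of the 204 pairs, 10 are uninterrupted copies of 6200 to 6700 bp, and 52 lie next to an IAPLTR1_Mm unit.

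**Figure D2:**
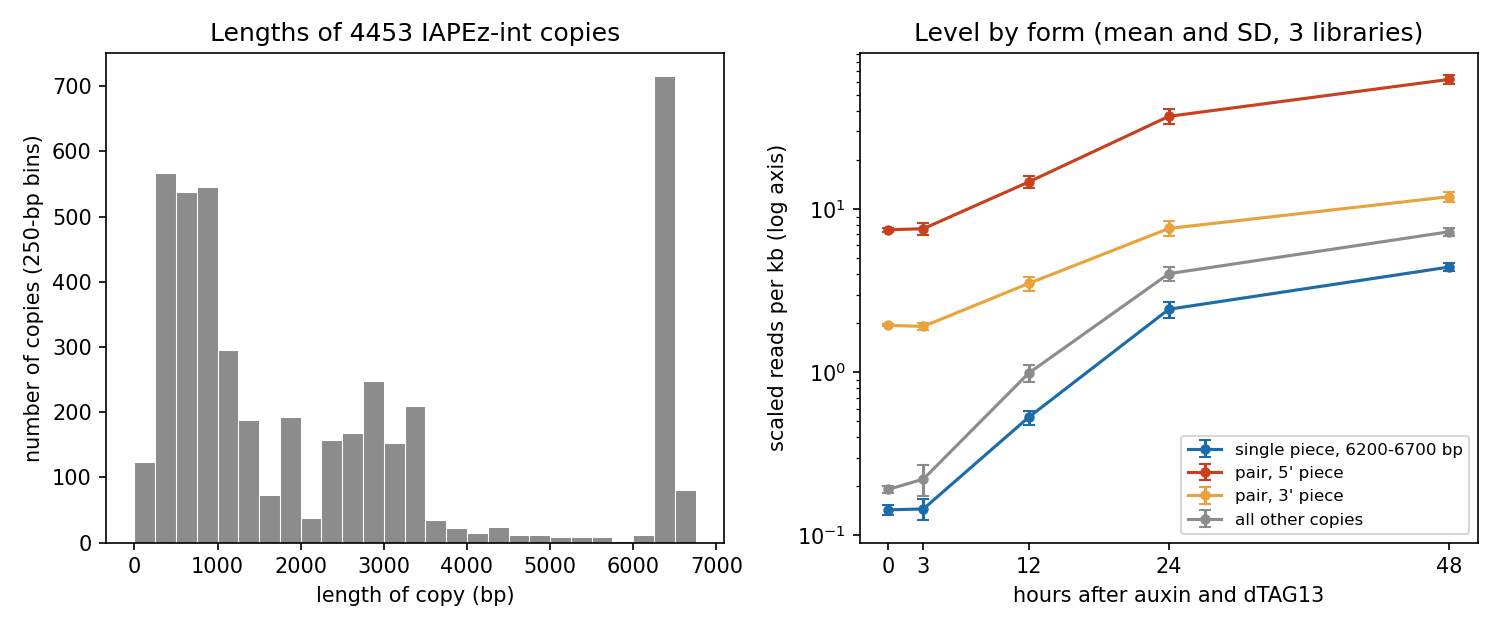
Left, the lengths of the 4453 copies in bins of 250 bp. Right, scaled reads per kb (log axis; mean and SD of 3 libraries) by form: the 5′ pieces of pairs are highest at every time (7.48 per kb at 0 h, 62.5 at 48 h) and uninterrupted copies of 6200 to 6700 bp lowest (0.144 and 4.42).

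By form, the 204 paired 5′ pieces stood at 7.48 ± 0.215 scaled reads per kb at 0 h and at 62.5 ± 3.73 at 48 h, and the paired 3′ pieces at 1.94 ± 0.0282 and 11.9 ± 0.826. The 804 uninterrupted copies stood at 0.144 ± 0.0108 and 4.42 ± 0.268 per kb. The pieces of the pairs, 9.2% of the copies, thus held 66.2% of the signal at 0 h and 29.7% at 48 h, while the uninterrupted copies went from 15.4% to 28.5%. Of these 804, 401 had no read at 0 h, and their single values at 48 h ran from 0 to 684 with a median of 14.1 scaled reads. Within the pairs the 5′ piece was the higher per kb in 93 of 204 at 0 h and in 156 of 204 at 48 h. The rank correlation between the 2 pieces of a pair was 0.43 at 0 h and 0.04 at 48 h over the 204 pairs, which share libraries. At 0 h a value of 0 is common in both pieces, 48 pairs having no read in either.

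**Figure D3:**
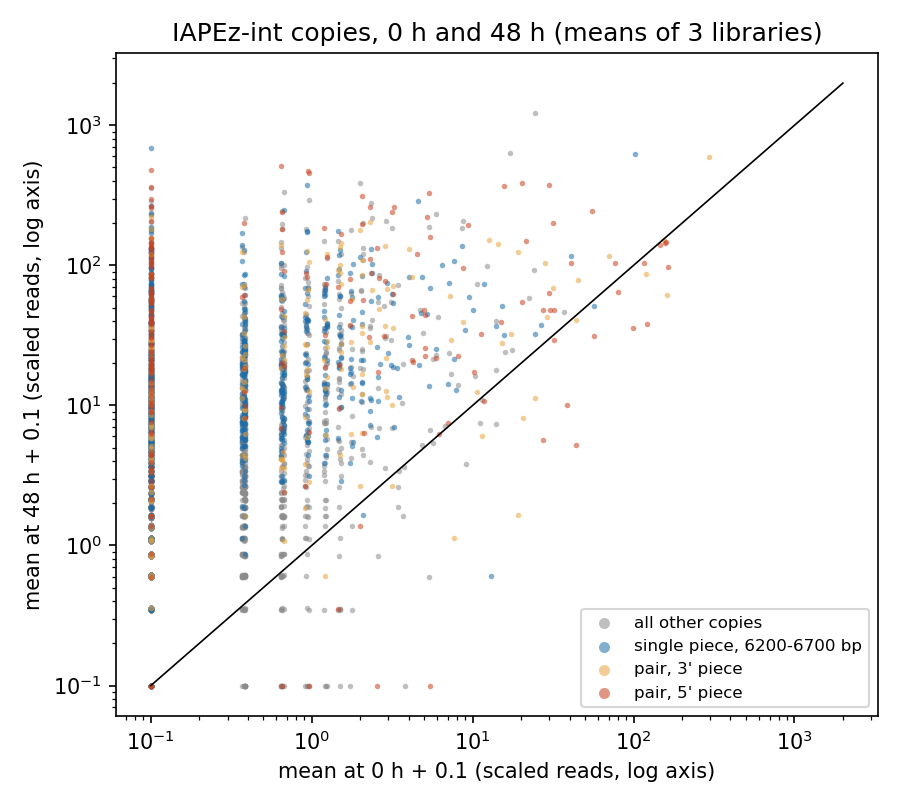
Each point is 1 of the 4453 copies, with its mean over 3 libraries at 0 h and at 48 h plus 0.1 on log axes; the line marks equal levels. The column at the left holds the 3020 copies with no read at 0 h, whose 48 h means run from 0 to 684, and many of the copies under the line at high 0 h levels are pieces of pairs.

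The flanking LTR and the length of a copy come from the annotation, so their classes could be tested. The 75 copies with a 0 h mean of 10 or more hold much of the 0 h sum of most classes, so each difference is also given without them. Leaving them out was chosen after the data were seen, and these values carry no test because the 0 h level enters the contrast. Copies of 5000 bp and over (837 copies) rose by 4.97 (log2, SE 0.12) by 48 h. Copies of 500 to under 2000 bp rose by 3.77 and those of 2000 to under 5000 bp by 3.72, which is 1.20 and 1.25 less within a library (SE 0.08, limma, adjusted p = 3.38e-47 and 8.83e-51). The shortest copies, under 500 bp, rose by 4.98, and the difference of 0.02 from the longest had a limma adjusted p of 0.876. At 3 h they led by 0.44 (SE 0.10, limma, adjusted p = 0.000587), while the differences of the other length classes were 0.01 and -0.02 (limma, adjusted p = 0.938 and 0.859). Per kb the order of levels was another: at 48 h copies of 500 to under 2000 bp stood at 16.5 ± 0.868, copies under 500 bp at 15.7 ± 0.981, copies of 2000 to under 5000 bp at 6.87 ± 0.462 and the longest at 4.46 ± 0.274 scaled reads per kb. Of the 75 copies high at 0 h, 64 are from 500 to under 5000 bp long, and they held 80.4% of the 0 h sum of the class of 500 to under 2000 bp and 76.2% of that of 2000 to under 5000 bp, against 42.0% in the longest class. Without the 75 copies the differences from the longest class at 48 h were 0.19 and -0.09 for these classes and -0.55 for copies under 500 bp. Leaving out copies by their 0 h level in itself enlarges the rise of the classes that held most of them. These values therefore cannot decide whether the smaller rise of the middle length classes rests on these copies.

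**Figure D4:**
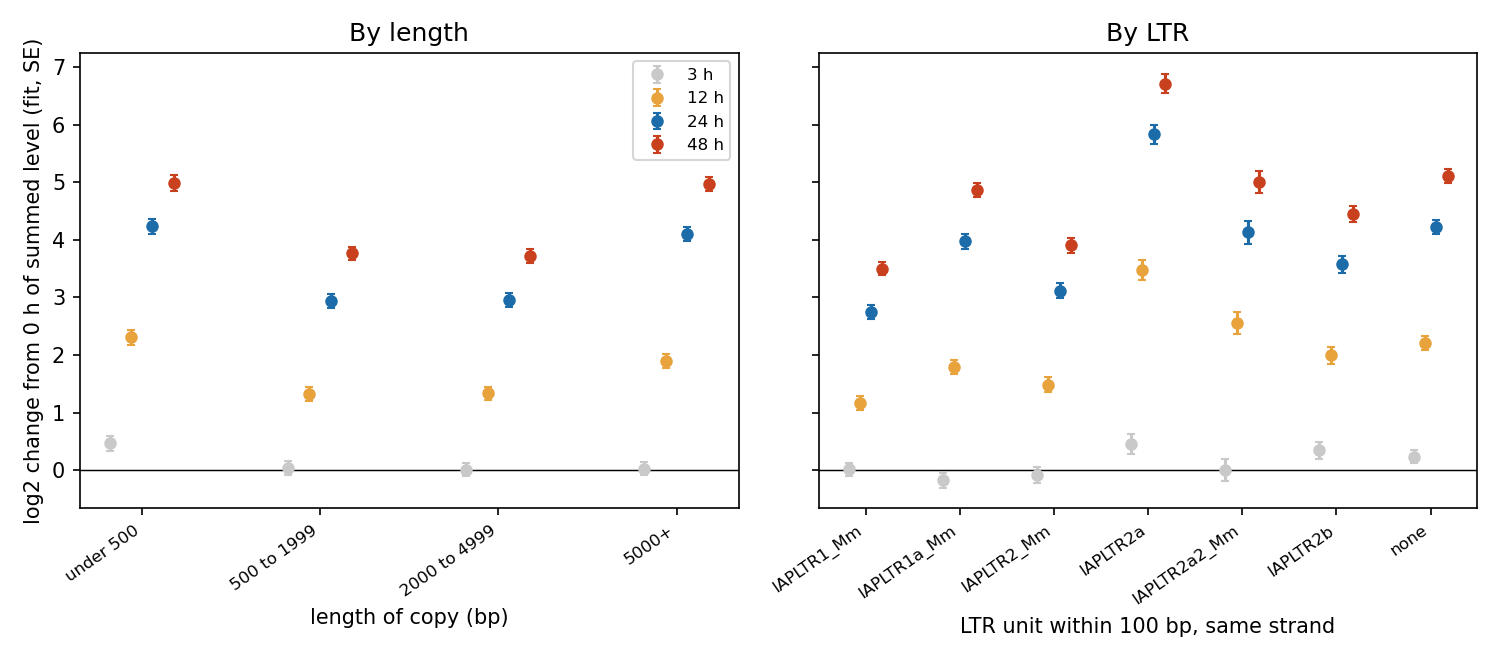
Fitted log2 change of the summed level over all copies of a class from 0 h (points, with SE) at 3, 12, 24 and 48 h by length class and by the LTR unit within 100 bp. At 48 h the length classes run from 3.72 to 4.98, and the LTR classes from 3.50 (IAPLTR1_Mm) to 6.71 (IAPLTR2a).

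Copies next to IAPLTR1_Mm (855 copies) were the highest of the 6 named LTR classes at 0 h, at 1.12 ± 0.0236 scaled reads per kb, and rose by 3.50 (log2) by 48 h, 1.61 (SE 0.10) less than the 2398 copies with no LTR unit (limma, adjusted p = 1.51e-52). The 52 of the high copies in this class held 83.9% of its 0 h sum, and without the 75 high copies the difference was 0.44, in the other direction. Copies next to IAPLTR1a_Mm, its close relative, began at 0.168 per kb and rose by 4.87, and those next to IAPLTR2_Mm rose by 3.91. The 112 copies next to IAPLTR2a began at 0.0457 ± 0.0191 per kb and rose by 6.71, 1.60 (SE 0.16) more than the copies with no LTR unit (limma, adjusted p = 5.50e-23). Their lead was in place by 12 h, at 1.27 (limma, adjusted p = 5.81e-15). It holds none of the high copies, and without those of the other classes its difference at 48 h was 1.23. Because the IAPLTR2a class holds 0.191% of the family's signal at 0 h, its baseline is a few reads per library. The class next to IAPLTR1_Mm still had the highest level among the 6 named LTR classes at 48 h, at 12.6 ± 0.743 per kb, against 5.06 ± 0.294 for IAPLTR2a. Among uninterrupted copies alone, IAPLTR1_Mm neighbours also stood highest at 48 h, at 6.42 per kb, with 4.23 for IAPLTR1a_Mm and 2.20 without an LTR unit. The difference of -0.24 between IAPLTR1a_Mm and no LTR unit at 48 h (limma, adjusted p = 0.0253) was lost with LTR units counted within 20 bp only (adjusted p = 0.0527) and in 4 fits that left out a library. These were 0 h replicate 1 (-0.17, adjusted p = 0.175), 0 h replicate 2 (-0.24, adjusted p = 0.0506), 48 h replicate 2 (-0.24, adjusted p = 0.0602) and 48 h replicate 3 (-0.22, adjusted p = 0.0752). Without the high copies it was 0.41.

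Summed over all copies, the classes inside genes rose less than the class outside them. The 3654 copies that overlap no gene rose by 4.24 (log2) by 48 h, the 633 inside a gene on the opposite strand by 3.55 and the 166 inside a gene on the same strand by 3.37. The last 2 classes rose by 0.69 and 0.88 less within a library (SE 0.06 and 0.07, limma, adjusted p = 7.79e-21 and 8.81e-24). In the opposite-strand class the 13 copies high at 0 h held 79.3% of the 0 h sum and 5.20% of the 48 h sum. Outside genes 51 such copies held 69.1% and 11.3%. With the high copies of every class left out, the opposite-strand class differed from the copies outside genes by -0.01 at 48 h. The same-strand class then differed by -0.94. Reads of a gene's own RNA can also count in copies inside it on the same strand, and their part in this class was not tested. Copies on the X chromosome (315) rose by 1.07 (SE 0.09) more than autosomal ones (limma, adjusted p = 5.32e-18), from a lower base of 0.216 ± 0.0402 against 0.475 ± 0.0151 scaled reads per kb. Without the high copies, which held 57.3% of the 0 h sum on the X and 72.1% on the autosomes, the difference was 0.14. The levels at 48 h were 7.26 ± 0.288 and 7.65 ± 0.463 per kb. The 80 copies on the Y chromosome were at 0.175 ± 0.0266 per kb at 0 h, above chromosomes 19 (0.0862) and 12 (0.145). At 48 h they were at 2.68 ± 0.273, below the X and every autosome, while the 11 copies on scaffolds were lower at both times (0.0115 and 1.60). Among autosomes the 48 h level ran from 4.63 ± 0.862 per kb on chromosome 19 to 13.3 ± 0.778 on chromosome 11, which holds 157 copies and 6.73% of the family's signal. A non-coding unit of the table overlaps 2903 copies (65.2%) on the same strand, and reads there can count in both units.

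The highest copy at 48 h was a 1080 bp piece on the X chromosome outside genes (IAPEz-int_dup3801, chrX:33213027-33214106). It held 34.1, 25.0 and 13.7 scaled reads at 0 h and 1211, 1214 and 1223 at 48 h, which is 5.68 on the log2 scale (SE 0.41, limma, adjusted p = 2.20e-08). At 24 h it already held 582 to 663. The 3272 bp piece that continues it downstream reached only 12.3 ± 6.67. The next highest was an uninterrupted copy of 6461 bp outside genes on chromosome 11, next to an IAPLTR1a_Mm unit and 17765 bp from Actg1, the gene of cytoplasmic γ-actin (IAPEz-int_dup4768, chr11:120321465-120327925). It had no read at 0 h, then 6.75, 5.73 and 3.10 scaled reads at 3 h. It held 44.8 to 60.0 after 12 h, 323 to 400 after 24 h and 673, 710 and 669 after 48 h. Taking 3 reads over the whole 0 h group as the floor, the level was 6.35 times that floor at 3 h and 820 times it at 48 h. The counting error of the later reads is not included. Both ratios are a description, because the copy was named for its values at these times. This copy is the longest of the 5 copies named for a call at 3 h. A 3353 bp copy inside A630089N07Rik on the opposite strand, next to an IAPLTR2b unit, rose from 16.9 ± 4.06 to 639 ± 18.2 (IAPEz-int_dup6695, chr16:98035576-98038928). An uninterrupted 6457 bp copy on chromosome 1 was the highest of its form at 0 h, at 102 ± 7.71, and rose to 620.1 ± 32.5 (IAPEz-int_dup476, chr1:149506647-149513103).

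Where the 0 h mean was 1 or more, the 5 copies with the largest fitted rise at 48 h were all between 778 and 1272 bp, and 4 of them are 5′ pieces of pairs next to IAPLTR1_Mm. The largest rise was that of a 778 bp piece, 1 of 4 in its insertion, on chromosome 13 in an exon of the lincRNA gene B230220B15Rik on the opposite strand and 300 bp from Ndufaf2, which encodes an assembly factor of mitochondrial complex I (IAPEz-int_dup5671, chr13:108001638-108002415). It had 5.69, 0 and 0 scaled reads at 0 h and 310, 383 and 464 at 48 h, a fitted rise by 7.66 in log2 units, given without a p because the copy passed the minimum through its late values. In its insertion a 241 bp piece rose alongside to 132 ± 31.4, while pieces of 1371 and 1898 bp reached 2.55 ± 4.41 and 7.33 ± 5.10. The next was a 1272 bp 5′ piece in an intron of Ehbp1, which encodes an actin-linked trafficking protein, on the same strand (IAPEz-int_dup4843, chr11:22338880-22340151). It rose from 0, 6.65 and 0 to 219, 305 and 259. Its 3′ piece of 3271 bp reached 26.9 ± 6.25. The others were a 1220 bp piece in an intron of Rab3gap1 (IAPEz-int_dup432, 312 ± 28.8 at 48 h), a 1263 bp piece over an exon of Abhd2 (IAPEz-int_dup2920, 261 ± 20.6), both opposite to the gene's strand, and a 1241 bp piece outside genes (IAPEz-int_dup2298, 185 ± 50.9). The nearest protein-coding gene to dup2298, Ndufa4, lies 1187149 bp away. Each of the 5 had a 0 h library without a read, so their fitted changes rest on 4 to 11 reads at baseline.

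Of the 666 tested copies 7 were called up at 3 h (1.05%), a smaller share than the 2.50% of all tested repeat copies. Of these 7, 5 were named by size of change. They lie on chromosomes 7, 10, 10, 11 and X, and 3 of them had no read at 0 h. Beside the copy near Actg1 they include both kinds of pair piece. The 1326 bp 5′ piece of the pair 8073 bp from Aire, the autoimmune regulator gene, held 8.78, 6.36 and 4.65 scaled reads at 3 h after 1.63, 0 and 0 at 0 h, a ratio of 12.0 with an exact 95% counting interval of 3.04 to 104 (IAPEz-int_dup4619, chr10:78020624-78021949). The interval is a description and not a test, because the copy was named for its 3 h change. At 48 h this 5′ piece held 495.5, 538 and 507, while its 3′ piece held 57.1 ± 9.01. The 3277 bp 3′ piece of a pair 5522 bp from Cemip, a hyaluronan-depolymerising protein's gene, rose from no read to 8.40 ± 5.08 at 3 h and 119 ± 36.5 at 48 h (IAPEz-int_dup2924, chr7:83924059-83927335), while its 5′ piece rose from 20.0 ± 1.89 to 385 ± 80.0. A 265 bp piece in an intron of Gng7 on the opposite strand went from no read to 5.14 ± 2.75 and 56.5 ± 13.6 (IAPEz-int_dup4625, chr10:80977156-80977420). A 6390 bp uninterrupted copy on the X chromosome went from 1 read to a mean of 3.60 ± 2.29 at 3 h and 128 ± 15.1 at 48 h (IAPEz-int_dup4188, chrX:143172942-143179331). The count of 7 moved with single libraries: leaving out 3 h replicate 3 gave 15 and 3 h replicate 2 gave 12, and leaving out 0 h replicate 3 gave 11. Fitting the 0 and 3 h libraries alone gave 0 (limma), with 22 copies at an unadjusted p under 0.05. On the same libraries edgeR also called 0. The share over all repeat copies was not taken in these fits.

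**Figure D5:**
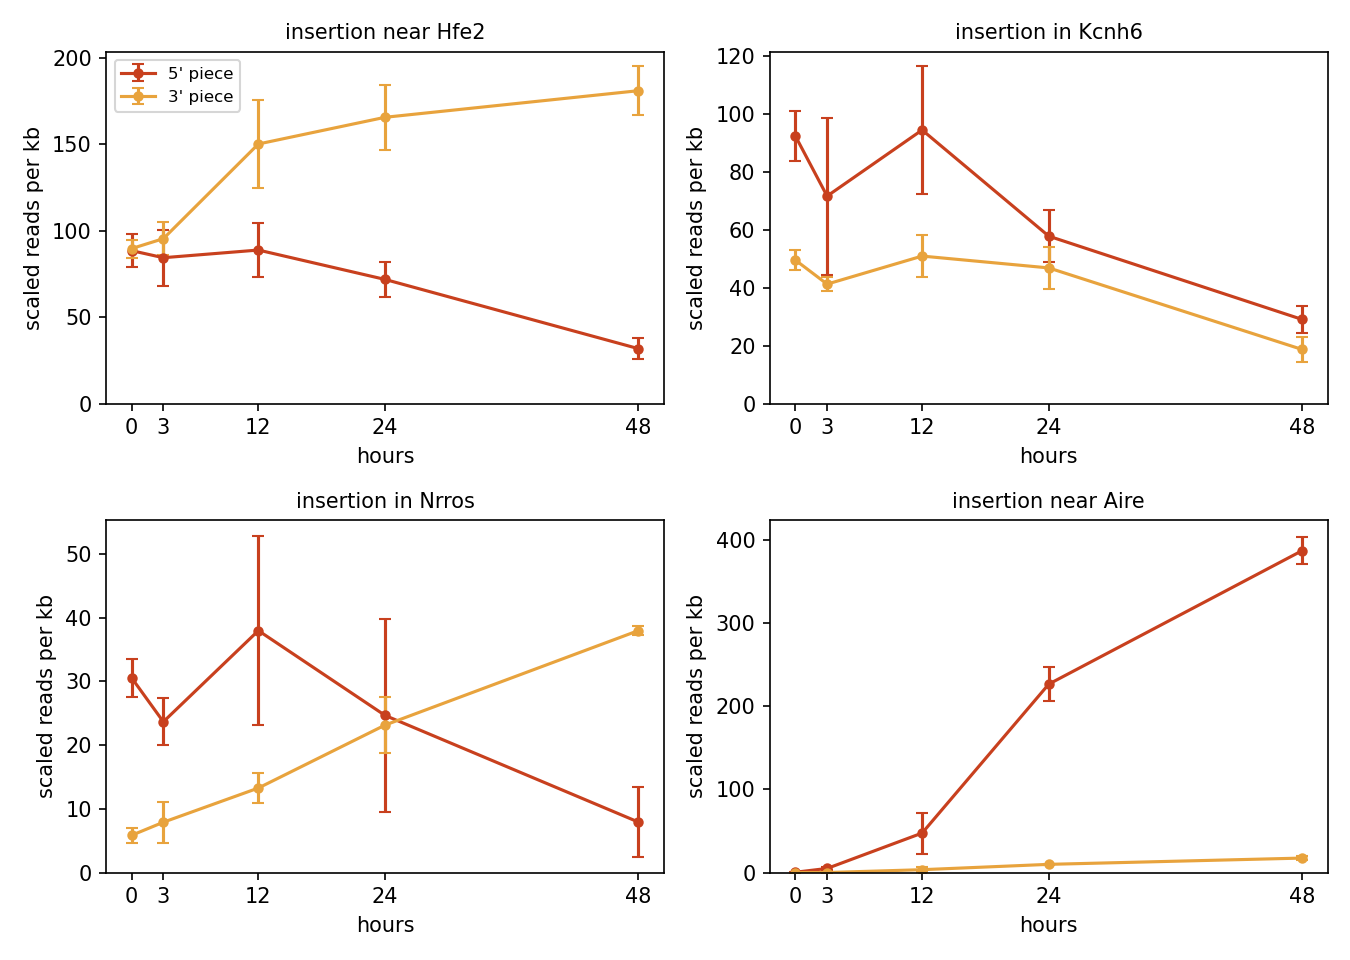
Scaled reads per kb (mean and SD of 3 libraries) of the 5′ and 3′ pieces of 4 paired insertions by time. Near Hfe2 the 3′ piece rises from 89.8 to 181 per kb while the 5′ piece falls from 88.6 to 31.9; both pieces fall in Kcnh6, and near Aire the 5′ piece reaches 387 per kb and the 3′ piece 17.5.

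The copies that were high before treatment behaved differently from each other. The highest at 0 h was a 3271 bp 3′ piece outside genes on chromosome 3 (IAPEz-int_dup1301, chr3:96489585-96492855), 32317 bp from Hfe2, the hemojuvelin gene of iron balance. It rose from 312, 290 and 279 to 540, 609 and 628 scaled reads at 48 h, a gain of 1.01 in log2 units (SE 0.14, limma, adjusted p = 3.16e-05). The 5′ piece of the same insertion, which ends at its first base (IAPEz-int_dup1302, chr3:96492855-96493973), fell over the same time from 110, 88.2 and 99.4 to 31.0, 32.5 and 43.6, or -1.46 in log2 units (SE 0.20, limma, adjusted p = 1.96e-05). So 2 parts of 1 insertion moved in opposite directions, with no overlap between 0 h and 48 h in either; the difference between the pieces was not tested. In an intron of Kcnh6, a potassium channel gene on the opposite strand, both pieces of a pair fell. The 3′ piece went from 162 ± 11.0 to 61.3 ± 13.6 (IAPEz-int_dup4973, chr11:106028617-106031883; log2 change -1.41, limma, adjusted p = 7.64e-06) and the 5′ piece from 121 ± 11.4 to 38.2 ± 5.99 (IAPEz-int_dup4974, chr11:106031882-106033193; log2 change -1.65, limma, adjusted p = 9.13e-05). Both were near their 0 h level at 12 h, at 167 ± 23.7 and 124 ± 28.9, so the fall came later.

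The 1272 bp 5′ piece in an intron of Mbnl1, a splicing regulator's gene, was the second highest copy at 0 h and also fell, from 169, 165 and 159 to 77.5, 101 and 111 (IAPEz-int_dup1227, chr3:60493478-60494749; log2 change -0.77, SE 0.19, limma, adjusted p = 0.00391). The largest fall was that of a 1305 bp 5′ piece in an intron of Capn11, a calpain protease gene, from 27.6, 36.6 and 66.9 to 3.69, 6.20 and 5.35 (IAPEz-int_dup6826, chr17:45644997-45646301; log2 change -2.80, limma, adjusted p = 0.000617). A 1258 bp 5′ piece in an intron of Nrros fell from 38.4 ± 3.69 to 9.96 ± 6.86 (IAPEz-int_dup6477, chr16:32148445-32149702), while its 3′ piece went from 19.1 ± 3.94 to 124 ± 2.48. The 5 copies named for their fall are all pieces of pairs, and 4 of these are opposite to the strand of the gene they lie in while the piece near Hfe2 lies outside genes. The median gene also changed by -0.37 (log2) at 48 h on the deposited scale. After the libraries were levelled over genes, each of these 6 named copies was still called down. The longest copy of the family, 6647 bp in an intron of Cdcp1 on the same strand, stayed low, with 6.93 ± 3.44 at 0 h and 14.2 ± 5.13 at 48 h (IAPEz-int_dup3707, chr9:123191196-123197842).

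Genes that start close to long copies were counted beside all genes. Of the 183 genes that start within 10 kb of a copy of at least 2000 bp, 125 could be tested. At the 4 times 2 (1.60%), 38 (30.4%), 23 (18.4%) and 27 (21.6%) of them were called up, where 0.636%, 12.9%, 7.21% and 7.65% of all tested genes were (limma). At 48 h 51 were called down (40.8%), where 58.4% of all genes were, and the median log2 change was -0.18 beside -0.37 over all genes. After levelling over genes 61 were called up and 21 down at 48 h, against backgrounds of 27.5% and 32.4%. The 12 h share was 16.0% when 0 h replicate 1 was left out, 17.6% when 12 h replicate 2 was, and 56.8% when 12 h replicate 1 was, beside 6.56%, 5.60% and 34.5% of all tested genes in the same fits. These shares are a description, and the difference between neighbours and other genes was not tested. A copy near a gene's start can lie inside the gene, as for Mrgprx2, Dnah6 and Mnd1 below, so its reads may be counted in the gene. Within 5 kb 15 of 44 tested genes were called up at 48 h (34.1%) and within 50 kb 108 of 768 (14.1%).

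Of the 8 neighbours named for the size of their change, 6 had a mean under 10 scaled reads at 0 h. Zscan4b, of the Zscan4 cluster of 2-cell-stage genes, starts 4622 bp from a 6453 bp copy and rose from 4.98 ± 2.08 to 317 ± 31.8 scaled reads at 48 h (log2 change 5.78), while that copy rose from no read to 15.5 ± 5.29. Mrgprx2, a receptor gene of the Mas-related family, had no read at 0 h. Its level of 206 ± 14.2 at 48 h is 247 times the floor of 3 reads over the 0 h group. A 3274 bp copy lies within it on the same strand and rose from 0.813 ± 1.41 to 45.7 ± 11.8, so its reads may be counted in the gene. Dnah6, which encodes a dynein heavy chain of cilia, fell from 27.9 ± 5.21 to 15.5 ± 0.826 at 3 h and rose to 171 ± 9.88 at 48 h (log2 change 2.59, limma, adjusted p = 2.53e-41). The 6378 bp copy inside it near its start, on the opposite strand, went from no read to 60.1 ± 8.0. Mnd1, a meiotic recombination gene, rose from 856 ± 56.3 to 3595 ± 142, with a 6396 bp copy inside it that went from no read to 39.4 ± 3.36. Zfp872, a zinc finger gene, rose from 6.11 ± 1.91 to 25.0 ± 4.81, and the 6424 bp copy 3915 bp away went from no read to 264 ± 35.6. The remaining named neighbours were 4932443I19RIK (5.00 ± 1.44 to 269 ± 11.0), Apoh, the apolipoprotein H gene (1.65 ± 0.791 to 39.7 ± 4.11) and Clec4b2, a C-type lectin gene. Clec4b2 had 3 reads at 0 h, and its ratio at 48 h was 37.0 with an exact 95% counting interval of 12.4 to 182. Whether the change of a gene and that of its neighbouring copy are linked was not tested.

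Among 32 genes of the silencing pathway that acts on IAPs, 30 were in the table and tested. Their median log2 change at 48 h was -0.41 beside -0.37 over all genes, with 22 called down (limma); 58.4% of all genes were called down. After levelling over genes 8 of the 30 were called up and 13 down, where 27.5% and 32.4% of all genes were. Trim28, the corepressor that recruits Setdb1, went from 3166 to 2002 scaled reads (log2 change -0.66, limma, adjusted p = 5.73e-07), and Cbx1, an HP1 protein, from 6082 to 3906. Uhrf1, which guides maintenance DNA methylation, went from 1902 to 1299, Ehmt2, the H3K9 methyltransferase G9a, from 379 to 230 and Mphosph8, a subunit of the HUSH complex, from 2167 to 1477. Daxx, a histone H3.3 chaperone, went from 267 to 180. Nascent RNA of the methyltransferase genes in the genotype label was still made: Setdb1 had 846 at 0 h and 732 at 48 h (limma, adjusted p = 0.129), Suv39h1 483 and 455 (adjusted p = 0.562) and Suv39h2 1091 and 803 (adjusted p = 0.00112). After levelling over genes Setdb1 and Suv39h1 were called up at 48 h, by 0.13 and 0.25 in log2 units (limma, adjusted p = 0.0143 and 0.000177), and Suv39h2 was called down (-0.11, adjusted p = 0.0391). These levels do not report protein. Of 5 genes with an IAP insertion known to vary in methylation, 4 were tested and 1, Cdk5rap1, named after its value was seen, was called at 48 h, falling from 607 to 479 on the deposited scale (limma, adjusted p = 0.0142), where 58.4% of all genes were called down. After levelling, its change was -0.0029 (limma, adjusted p = 0.964), and Axin1 and Slc15a2 were called up, by 0.077 and 0.20 (adjusted p = 0.0335 and 0.0407).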

How the data were processed

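TT-seq was deposited for 15 libraries, each sequenced in 2 runs (30 samples). The submitters' processing notes name the aligner STAR (2.5.2a), DESeq2 and the mouse build mm10, also called GRCm38. The deposited signal is reads per transcription unit divided by 1 size factor per library, as the values show: 99.9974% to 99.9991% of values per library were whole multiples of 1 step within 0.05, which recovers the authors' whole reads. The steps ran from 0.636 to 0.936. The basis of the size factors, the counting tool, its strand setting and the handling of reads with several positions were not given in the sources used here.

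From the scaled reads, log2(value + 1) was fitted with limma 3.58.1 (R 4.3.3, intensity trend) over all 15 libraries, for units with a mean of at least 10, two-sided, with Benjamini-Hochberg adjustment within copies (13519), families (774) and genes (15261) and a threshold of 0.05. Classes and families were compared as log2 ratios within a library, which the scaling does not touch. Fold changes on this scale understate the change of low units. edgeR 4.0.16 on the recovered reads, other minimums, pseudocounts and scalings, the replicate block and leaving out each library were alternatives, and leaving the copies high at 0 h out of the classes was added after the data were seen. Tests were checked on simulated data: 46% of 2-fold and 100% of 4-fold rises were found among 13519 copies at 48 h. Of falls to 0.5 and 0.25 of the level, 40% and 86% were found. Each simulated copy started from its mean over all libraries, which was at least 10, so copies with few reads at 0 h are not covered. All simulated copies shared the same dispersion (spread between libraries beyond counting error), and only a small part of them were changed. The shares found in the data may therefore differ.

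Replicates are called biological repeats in the series' text. The p-values of limma rest on the spread between these samples pooled over the units of a fit, not on a unit's own libraries alone. In the family fit the SE was 0.118 for IAPEz-int and 0.120 for MMERVK10C-int, so the very small p-values lean on that pooled spread. Intervals cover counting error only, and a floor replaces only the 0 h reads, not the later count. Both are given for units named for their change or level and are not tests. Copies named are the 5 with the largest rise (0 h mean of at least 1), the 5 highest at 48 h, the 3 highest at 0 h, up to 5 called at 3 h, up to 5 that fell most, the longest and the longest without a read. Genes named are up to 8 neighbours with the largest change, 6 silencing genes with the smallest adjusted p and the methyltransferases of the label. Members and lists were chosen with earlier results of these data known. Repeat starts in the deposited table count from 0 and are printed from 1. Sequences are from RefSeq (GRCm38.p6).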

Additional observations from a re-analysis of the deposited data

How the results depend on the processing

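The count of copies called up at 3 h (7) was 12 after levelling the libraries over genes, 3 with a pseudocount of 5, 4 with edgeR, and 0 with the minimum at 0 h or with the 2 times alone (limma; 2 and 22 copies had an unadjusted p under 0.05, and edgeR also called 0 in both). Leaving out 1 library gave 7 to 15. The family's log2 change at 3 h (0.04) was 0.28 after levelling and -0.0098 to 0.12 with 1 library left out. With no minimum, the minimum at 0 h and a minimum of 50, the 24 h count (596) was 1549, 19 and 87 and the 48 h count (614) 2239, 25 and 87, and the 12 h count (328) was 13 with the minimum at 0 h and 76 with 50, as these settings test more or fewer copies. Tested were 666 copies in the main fit, 4451 with no minimum and 75 with the minimum at 0 h. For a minimum of 50 that number is not given here, so its counts cannot be set against the others. Shares over all repeat copies were taken only for the main fit, no minimum and the minimum at 0 h. With a pseudocount of 5, IAPLTR2a2_Mm minus no LTR unit was -0.020 at 12 h and became a call at 24 h (-0.52, limma, adjusted p = 0.00326, from -0.09) and 48 h (-0.54, adjusted p = 0.00206, from -0.11), and copies under 500 bp minus the longest at 48 h -0.030. Without the 75 copies high at 0 h, chosen after the data were seen, differences from the longest copies at 3, 12, 24 and 48 h were 0.17, 0.14, -0.065 and -0.086 (2000 to under 5000 bp), 0.18, 0.34, 0.13 and 0.19 (500 to under 2000 bp) and 0.34, -0.033, -0.43 and -0.55 (under 500 bp). Those from no LTR unit were 0.12, 0.31, 0.42 and 0.44 for IAPLTR1_Mm and -0.29, 0.11, 0.37 and 0.41 for IAPLTR1a_Mm, and -0.28 for IAPLTR2b at 3 h. For IAPLTR2a2_Mm the differences were -0.46 and -0.48 at 24 and 48 h. The values without the high copies carry no test, because the 0 h level enters the contrast. Copies opposite to a gene minus those outside genes were at 0.030 at 3 h and Y minus autosomes at -0.024 at 3 h and -1.28 at 48 h. The latter, with all copies, was 0.00094 at 24 h with a pseudocount of 0.5. With 1 library left out, the length differences from the longest copies ran from -0.088 to 0.078 (2000 to under 5000 bp, 3 h), -0.031 to 0.070 (500 to under 2000 bp, 3 h) and -0.034 to 0.085 (under 500 bp, 48 h). Likewise IAPLTR2a2_Mm minus no LTR unit ran from -0.48 to 0.18 at 3 h, -0.34 to 0.074 at 24 h and -0.35 to 0.063 at 48 h, and IAPLTR2b from -0.021 to 0.27 at 3 h. X minus autosomes ran from -0.051 to 0.25 at 3 h, and Y minus autosomes from -0.37 to 0.47, -0.35 to 0.13, -0.11 to 0.086 and -0.20 to 0.00079 at the 4 times. The cause was not tested. Same-numbered libraries deviated together with r of -0.102 to 0.132, so the numbers were not taken to pair samples; with the replicate block 6, 330, 592 and 615 copies were called up at the 4 times. Copies with few reads at 0 h limit every fold change from baseline.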
